A study of Mus musculus with 10 samples.

Results

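The 31 genes described here encode the SR proteins and the heterogeneous nuclear ribonucleoproteins (hnRNPs), splicing factors of the cell nucleus. They are all the rows of the count files whose symbol starts with Srsf (11 genes) or Hnrnp (20 genes), with the 2 rows named as pseudogenes left out, among 55573 annotated genes. Their transcripts were counted in bone marrow hematopoietic stem and progenitor cells (HSPCs), the cells from which blood is renewed. The cells came from C57BL/6 mice, 16 weeks old per the labels, taken 6 weeks after 500 cGy of radiation to the whole body. The EGF group of 5 libraries came from irradiated mice injected under the skin with epidermal growth factor, the ligand of the receptor EGFR. The Saline group of 5 libraries came from mice that were irradiated in the same way and injected with saline, so no library is from unirradiated mice. The comparison asks how the transcriptome after radiation injury differs with EGF. The sort gate is not given in the sources used here. Whether the 5 libraries of a group stand for 5 mice is not stated, so a p-value here rests on variation among libraries that could be technical.

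Splicing removes introns from pre-mRNA. SR proteins carry RNA recognition motifs and a tail rich in arginine and serine, bind enhancer sequences in exons and help the U1 and U2 particles to find splice sites. hnRNPs coat the nascent transcript and often keep splice sites from being used, so the balance of both families sets which exons are kept. Many of these genes limit their own level by splicing in an exon with an early stop codon, which sends the transcript to nonsense-mediated decay. In human blood disease, SRSF2 is a recurrently mutated gene of myelodysplastic syndrome, and HNRNPK is lost in some acute myeloid leukemias.

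Total counts were 6805106 to 8370820 per library. Values are CPM (counts scaled to a common library total) after TMM scaling, unless another scale is named. EGF replicate 5 stood apart: 12731 genes had a count in it, against 18734 to 20046 in the other 9 libraries. The noncoding RNA Malat1, which stays in the nucleus, made up 0.521%, 0.387%, 0.908%, 0.905% and 1.62% of the counts in EGF replicates 1 to 5, and 0.336% to 0.444% in the Saline libraries. Transcripts of the mitochondrial genome took 7.73% to 10.04% of the counts in the EGF libraries and 5.89% to 7.43% in the Saline libraries. Of 12 marker genes of stem and progenitor cells, Kit, Cd34, Flt3 and Gata2 among them, all were detected and 11 had a count in every library, with a summed level of 1956 to 2174 CPM in the EGF libraries and 1706 to 1989 CPM in the Saline libraries. Markers of other blood cells were also present, and no marker of these lists was at 0 in all 10 libraries. The 7 plasma cell markers summed to 1478 to 7194 CPM in the EGF libraries, lowest in replicate 5, and to 5306 to 11660 CPM in the Saline libraries. The 10 markers of neutrophils and granulocyte progenitors summed to 1754 to 2819 CPM with EGF and to 1656 to 5760 CPM with saline, and most of that sum was the progenitor gene Mpo (1429 to 2144 CPM with EGF and 1307 to 4372 CPM with saline). Some genes of mature neutrophils, named after their values were seen, were highest in EGF replicate 5 of all libraries (S100a9, Ngp, Camp and Ltf). Others were not: S100a8 was at 13.9 CPM in that library, against 2.67 to 61.4 CPM in the Saline libraries. Mmp8 was at 0.28 CPM in it, against 0 to 2.67 CPM in the Saline libraries. S100a9 was at 176 CPM in EGF replicate 5, against 0.713 to 25.2 CPM in the other EGF libraries and 2.28 to 129 CPM in the Saline libraries. Ngp was at 130.1 CPM there, against 0 to 25.6 CPM in the other EGF libraries and 0 to 90.6 CPM in the Saline libraries. Ltf was at 129 CPM there, against 0 to 20.1 CPM in the other EGF libraries and 0.381 to 56.2 CPM in the Saline libraries. The lists of erythroid, B, T and NK, macrophage, megakaryocyte and stromal or endothelial markers summed to between 3.92 and 661 CPM in the EGF libraries and to between 14.8 and 813 CPM in the Saline libraries. The part of these differences in the results below was not tested.

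Both families were expressed at substantial levels, and 30 of the 31 members passed the filter on low counts. Srsf12, a small SR protein gene, did not pass: it had 1, 0, 0, 0 and 0 counts in EGF replicates 1 to 5, against 4, 0, 2, 2 and 3 counts in Saline replicates 1 to 5. The 11 Srsf genes together took 0.245%, 0.232%, 0.243%, 0.270% and 0.336% of the counts in EGF replicates 1 to 5, and 0.250%, 0.233%, 0.250%, 0.227% and 0.231% in Saline replicates 1 to 5. The 20 Hnrnp genes took 1.02%, 0.991%, 0.975%, 1.06% and 1.27% in EGF replicates 1 to 5, and 0.970%, 1.01%, 1.08%, 1.01% and 1.01% in Saline replicates 1 to 5. In both sums EGF replicate 5 was the highest of all libraries. In the Hnrnp sum the other 4 EGF libraries lay within the Saline range, and in the Srsf sum EGF replicate 4 also lay above it. After TMM scaling the Hnrnp sum of EGF replicate 3 (9465 CPM) lay slightly below the lowest Saline library (9518 CPM). In these bulk libraries a smaller number of cells of a type and less RNA per cell cannot be told apart.

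Levels can be compared between genes per length of transcript (TPM, with the longest annotated coding transcript as the length). In the Saline libraries Srsf5 led the SR family at 135 ± 17.2 TPM (SD, n = 5), followed by Srsf2 at 79.5 ± 8.50 TPM and Srsf3 at 51.5 ± 5.43 TPM. Srsf7, Srsf1, Srsf11, Srsf6, Srsf4, Srsf9 and Srsf10 followed in that order, between 48.3 and 19.5 TPM. From Srsf3 down to Srsf6 each gene differed from the next by less than the larger SD of the pair, and the steps from Srsf6 to Srsf4, Srsf9 and Srsf10 were larger than that. Among the hnRNP genes Hnrnpa2b1 was at 410.0 ± 47.6 TPM, Hnrnpa1 at 242 ± 27.8 TPM and Hnrnpab at 172 ± 12.9 TPM. Hnrnpk, Hnrnph1, Hnrnpu, Hnrnpa3, Hnrnpm, Hnrnpl, Hnrnpc, Hnrnpul1, Hnrnpf, Hnrnpdl, Hnrnpa0, Hnrnpd, Hnrnpul2, Hnrnpll, Hnrnph3 and Hnrnph2 followed in that order, between 152 and 11.7 TPM. In that order Hnrnph1 and Hnrnpu, Hnrnpa3 and Hnrnpm, the genes from Hnrnpc to Hnrnpa0, Hnrnpd and Hnrnpul2, and the genes from Hnrnpll to Hnrnph2 differed from their neighbour by less than the larger SD. The lowest was Hnrnpr at 5.40 ± 0.401 TPM, whose longest annotated transcript has 21452 bases. With the merged length of all annotated exons in place of the longest transcript, Srsf3 ranked 8 of 11 in its family and Hnrnpa2b1 ranked 3 of 20, so the order depends on the length used.

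No member passed the test of EGF against saline. In the edgeR quasi-likelihood fit, with p-values adjusted over all 12874 genes tested (Benjamini-Hochberg, threshold 0.05), 0 of 30 members were called higher and 0 lower, where 0.00777% of all genes tested were called higher and 0% lower, and the lowest adjusted p of a member was 0.552. At an unadjusted p under 0.05, 3 members were higher (Srsf4, Srsf5 and Hnrnph3) and 0 lower, against 6.14% of all genes higher and 2.73% lower, and 3 of 30 is not far from that background. That count was 0 without Saline replicate 4, 1 without Saline replicate 1, 3 or 5, and 2 without Saline replicate 2 or EGF replicate 4. It was 3 without EGF replicate 3 or 5, and 4 without EGF replicate 1 or 2. Over all genes tested the number higher at that threshold changed as well, from 790 of 12874 with all libraries to 423 of 13079 without Saline replicate 4. This number was 457 to 615 without Saline replicate 1, 2, 3 or 5, and 712 to 1098 without 1 EGF library. With EGF replicates 3, 4 and 5 left out 0 members were higher at that threshold, and 447 of 13585 genes tested were. DESeq2 called 0 members as well, where it called 0.432% higher and 0.24% lower of the 8334 genes it gave an adjusted p, and limma-voom called 0 with and without sample quality weights. The fitted log2 fold change was above 0 for 8 of 10 SR genes (median 0.14) and for 14 of 20 hnRNP genes (median 0.04), against 48.5% of all genes tested (median -0.01). Without EGF replicate 5 it was above 0 for 6 of 10 SR genes (median 0.03) and for 4 of 20 hnRNP genes (median -0.04), against 50% of all genes (median -0.00023). That fit called 0 of 30 members, where 0.0305% of genes were called in each direction. At an unadjusted p under 0.05 it had 3 members higher (again Srsf4, Srsf5 and Hnrnph3), against 8.38% of genes, and 2 lower (Hnrnpa0 and Hnrnpab), against 7.39% of genes.

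**Figure D1:**
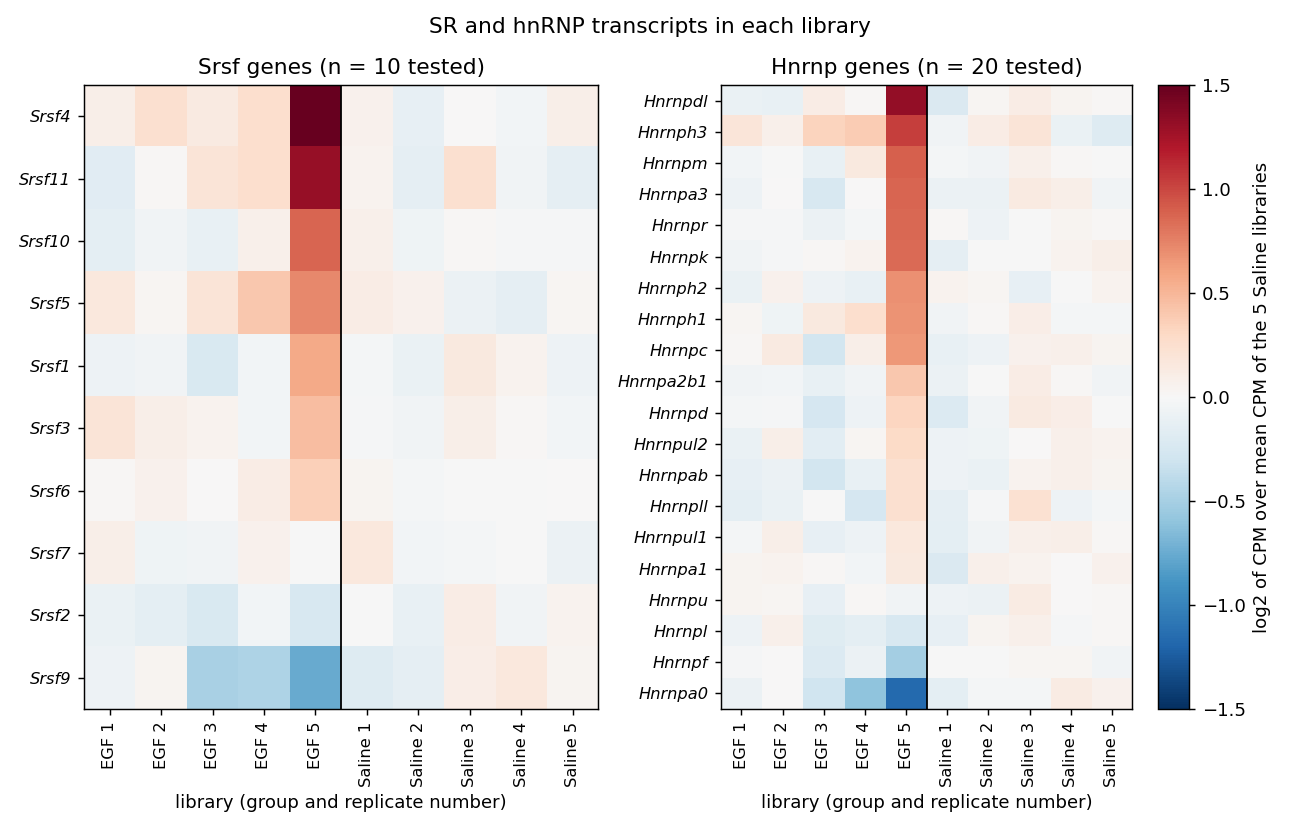
Heat map of log2 of CPM over the mean of the 5 Saline libraries, for the 10 tested Srsf genes (left) and the 20 tested Hnrnp genes (right) in each EGF and Saline library. EGF replicate 5 is the column that departs most, from 1.49 for Srsf4 to -1.17 for Hnrnpa0.

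EGF replicate 5 departed from the Saline libraries more than any other EGF library did. In EGF replicate 5, 7 of 10 SR genes and 16 of 20 hnRNP genes lay above all 5 Saline libraries, and 2 and 3 lay below all of them. Of all genes tested, 36.3% lay above and 50.7% below in that library, so most transcripts were outside the Saline range there. Among the 3899 genes with a mean of at least 48.7 CPM in the Saline libraries, the level of the lowest tested member, 46.6% lay above and 39.1% below. In EGF replicate 3, 2 SR and 3 hnRNP genes lay above the Saline range and 4 and 12 lay below it. Over all genes tested 24.1% lay above and 24.9% below, and among the 3899 genes at or above that level 21% and 34.5%. In EGF replicate 4, 5 SR and 4 hnRNP genes lay above and 1 and 5 below, against 26.7% above and 26.8% below over all genes tested and 27% and 30.8% among those 3899. EGF replicates 1 and 2 had 22 and 21 of 30 members within the Saline range, against 8546 and 8861 of all 12874 genes tested. The coefficient of variation had a median over the 30 members of 20.6% in the EGF libraries, 6.76% in the EGF libraries without replicate 5, and 5.86% in the Saline libraries.

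**Figure D2:**
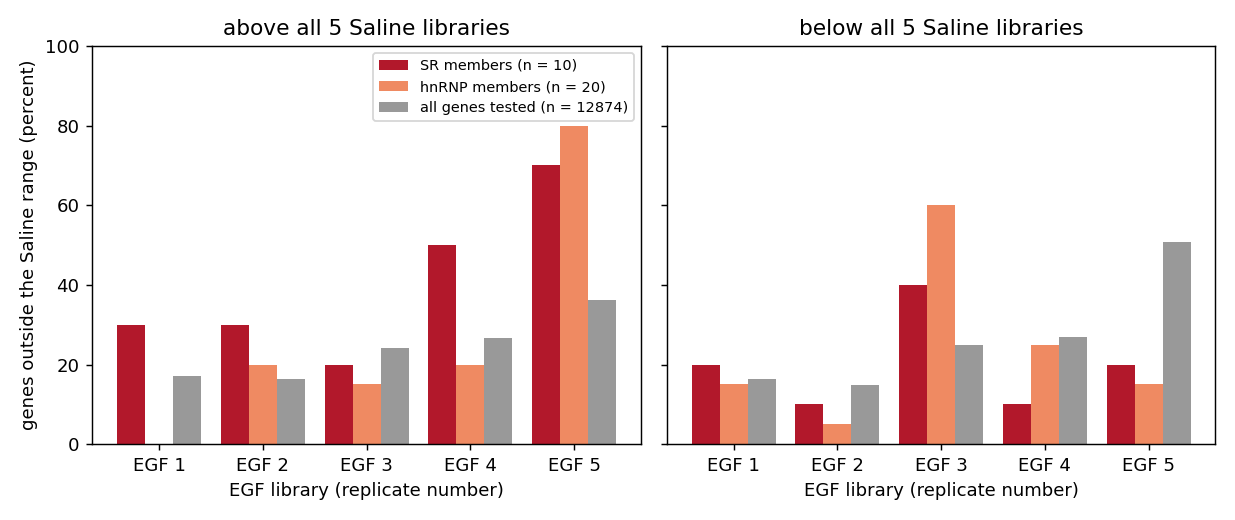
Percent of genes above (left) or below (right) all 5 Saline libraries in each EGF library, for the 10 SR members, the 20 hnRNP members and the 12874 genes tested. In EGF replicate 5, 70% of SR and 80% of hnRNP members lay above, against 36.3% of all genes tested. Of the 3899 genes with a Saline mean of at least 48.7 CPM, which are not drawn, 46.6% lay above. In EGF replicate 3, 60% of hnRNP members lay below, against 24.9% of all genes tested and 34.5% of those 3899.

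Srsf4, on chromosome 4 from 131873617 to 131901706 (GRCm38), encodes a large SR protein that promotes exon inclusion, and it was the member with the largest fitted difference. It was at 148, 163, 153, 165 and 390.4 CPM in EGF replicates 1 to 5, against 145, 127, 139, 135 and 148 CPM in Saline replicates 1 to 5. The 2 groups did not overlap, with a narrow margin between EGF replicate 1 and Saline replicate 5, and EGF replicate 5 was far above the rest. It was the 1 member of 30 whose groups did not overlap, where 1.62% of all genes tested had every EGF library above and 1.65% every EGF library below. The difference was not called (log2 fold change 0.56, SE 0.25, edgeR adjusted p = 0.552), and without EGF replicate 5 it was 0.18 (SE 0.06, edgeR adjusted p = 0.211), again not called. The noncoding gene Gm12992, transcribed in the opposite direction, shares 43.0% of the exonic sequence of Srsf4, and it had 6 to 36 counts in the EGF libraries and 14 to 38 in the Saline libraries.

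Srsf5, on chromosome 12 from 80945504 to 80950507, encodes an SR protein first described in the rat as induced by insulin in liver cells. It was at 435, 398, 448, 519 and 646 CPM in EGF replicates 1 to 5, against 423, 409, 369, 355 and 400.3 CPM in Saline replicates 1 to 5. EGF replicates 1, 3, 4 and 5 lay above all Saline libraries, and replicate 2 lay within them (log2 fold change 0.32, SE 0.13, edgeR adjusted p = 0.552). Without EGF replicate 5 the log2 fold change was 0.20 (SE 0.08, edgeR adjusted p = 0.263). Srsf4 and Srsf5 were both highest in EGF replicates 5 and 4, and Malat1 was above its Saline range in EGF replicates 1, 3, 4 and 5. The part of that difference in the values of Srsf4 and Srsf5 was not tested.

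The promoters of the 3 members with an unadjusted p under 0.05, and of Hnrnpa0, the member with the lowest fold change, are printed here to show what kind of start sites these genes use. They were chosen after their values were seen. RefSeq (GRCm38.p6) gave a promoter for 29 of the 31 members. The 250 bases before the start are written from 5′ to 3′ along the gene, and capitals mark any match, on either strand, to 6 motifs. These were the SP1 motif GGGCGG, the ETS motif CCGGAAG, the CCAAT box, the TATA box read as TATAAA, the AP-1 motif with the letters TGANTCA and the CRE motif TGACGTCA.
Srsf4, chr4:131873387-131873636, plus strand: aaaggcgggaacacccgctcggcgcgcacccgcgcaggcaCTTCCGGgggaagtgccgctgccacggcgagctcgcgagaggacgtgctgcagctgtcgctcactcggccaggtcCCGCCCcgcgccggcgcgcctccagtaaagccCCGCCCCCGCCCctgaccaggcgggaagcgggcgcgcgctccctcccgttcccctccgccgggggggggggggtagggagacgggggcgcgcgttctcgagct
Srsf5, chr12:80945249-80945498, plus strand: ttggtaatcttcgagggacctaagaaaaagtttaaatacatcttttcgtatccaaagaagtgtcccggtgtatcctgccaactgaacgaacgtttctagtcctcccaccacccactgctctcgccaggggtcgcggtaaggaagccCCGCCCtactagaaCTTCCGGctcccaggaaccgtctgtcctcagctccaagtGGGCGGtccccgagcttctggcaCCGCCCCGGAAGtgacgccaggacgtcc
Hnrnph3, chr10:63023850-63024099, minus strand: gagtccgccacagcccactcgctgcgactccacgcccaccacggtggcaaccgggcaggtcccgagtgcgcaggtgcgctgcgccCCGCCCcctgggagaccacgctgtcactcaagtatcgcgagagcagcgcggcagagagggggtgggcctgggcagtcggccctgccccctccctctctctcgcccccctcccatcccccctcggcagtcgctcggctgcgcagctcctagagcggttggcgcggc
Hnrnpa0, chr13:58128557-58128806, minus strand: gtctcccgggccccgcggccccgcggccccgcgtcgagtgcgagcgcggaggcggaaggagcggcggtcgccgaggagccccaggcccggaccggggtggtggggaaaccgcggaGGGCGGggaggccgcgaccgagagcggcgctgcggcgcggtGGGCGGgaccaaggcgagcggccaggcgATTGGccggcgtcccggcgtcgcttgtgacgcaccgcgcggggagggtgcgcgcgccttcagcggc
These windows hold 37, 17, 25 and 46 CpG dinucleotides, in the order printed, against a median of 23 over the 29 member promoters and of 6 over all 32851 promoters of the table. The GGGCGG motif was in 23 of 29 member promoters (79.3%) and in 32.7% of all, and it overlaps a match to CCGGAAG once in the Srsf5 window. The ETS motif was in 20.7% of member promoters and 6.91% of all, and the CCAAT box in 51.7% and 33.8%. The TATA box was in 10.3% and 12.4%. The AP-1 motif, bound by factors that act downstream of EGFR and ERK, was in 1 member promoter (Hnrnpa1, 3.45%) and in 6.75% of all, and the CRE motif in 0 of 29 and in 1.55%. A match is a description of the letters in this window.

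Srsf11 encodes an SR protein found with U2AF at the polypyrimidine tract. It was at 214, 243, 276, 287 and 595 CPM in EGF replicates 1 to 5, against 249, 219, 283, 232 and 219 CPM in Saline replicates 1 to 5. EGF replicate 5 was far above every other library, replicate 4 slightly above the Saline range and replicate 1 slightly below it (log2 fold change 0.42, SE 0.25, edgeR adjusted p = 0.586; 0.08, SE 0.10, without EGF replicate 5). Srsf10 encodes an SR protein that turns into a splicing repressor when it loses its phosphates. It was at 123, 131, 126, 143 and 248 CPM in EGF replicates 1 to 5, against 143, 129.8, 137, 134 and 134 CPM in Saline replicates 1 to 5. EGF replicate 5 lay far above the Saline libraries and replicate 4 barely above, while replicates 1 and 3 lay below them (log2 fold change 0.19, SE 0.18, edgeR adjusted p = 0.72), and without replicate 5 the log2 fold change was -0.05 (SE 0.06, edgeR adjusted p = 0.705).

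Srsf3, one of the smallest SR proteins and an adaptor for mRNA export, was at 285, 265, 258, 243 and 343 CPM in EGF replicates 1 to 5, against 246, 241, 264, 252 and 243 CPM in Saline replicates 1 to 5. EGF replicates 1, 2 and 5 lay above the Saline range and replicates 3 and 4 within it (log2 fold change 0.16, SE 0.09, edgeR adjusted p = 0.591; 0.07, SE 0.06, without EGF replicate 5). Srsf6, whose protein binds exonic enhancers much as that of Srsf4 does, was at 258, 266, 256, 275 and 328 CPM in EGF replicates 1 to 5, against 262, 251, 255, 254 and 256 CPM in Saline replicates 1 to 5. Its Saline libraries were the closest of any member, with a coefficient of variation of 1.67%, and EGF replicates 2, 4 and 5 lay above them (log2 fold change 0.11, SE 0.08, edgeR adjusted p = 0.636; 0.04, SE 0.05, without EGF replicate 5). Srsf1, the prototype SR protein, averaged 437 ± 105 CPM in the EGF libraries, against 419 ± 28.7 CPM in the Saline libraries (SD over 5 libraries a group; log2 fold change 0.06, SE 0.14, edgeR adjusted p = 0.876; -0.10, SE 0.07, without EGF replicate 5), and its mean without EGF replicate 5 was 391 ± 23.9 CPM (SD, n = 4). Srsf7, which carries a zinc knuckle beside its RNA recognition motif, averaged 215 ± 10.4 CPM in the EGF libraries, against 214 ± 15.1 CPM in the Saline libraries (SD, n = 5 each) and was within the Saline range in all EGF libraries.

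2 SR genes had lower values with EGF. Srsf2, on chromosome 11 from 116849901 to 116853094, encodes the SR protein whose human counterpart is mutated in myelodysplasia. It was at 261, 252, 238, 272 and 236 CPM in EGF replicates 1 to 5, against 277, 259, 301, 269.5 and 289.9 CPM in Saline replicates 1 to 5. EGF replicates 2, 3 and 5 lay below all Saline libraries, and replicates 1 and 4 lay within them (log2 fold change -0.15, SE 0.07, edgeR adjusted p = 0.552). Without EGF replicate 5 the log2 fold change of Srsf2 was -0.13 (SE 0.06, edgeR adjusted p = 0.341), close to the value with that library. Mfsd11 and Mettl23, transcribed in the opposite direction, share 25.3% of its exonic sequence, and each had at most 80 counts in any EGF library and 86 in any Saline library. Srsf9, with a short arginine and serine tail, was at 61.2, 66.3, 45.9, 46.8 and 38.2 CPM in EGF replicates 1 to 5, against 56.5, 58.5, 68.9, 71.9 and 66.4 CPM in Saline replicates 1 to 5. EGF replicates 3, 4 and 5 lay below all Saline libraries, while EGF replicates 1 and 2 lay within them (log2 fold change -0.32, SE 0.15, edgeR adjusted p = 0.552; -0.23, SE 0.12, without EGF replicate 5).

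**Figure D3:**
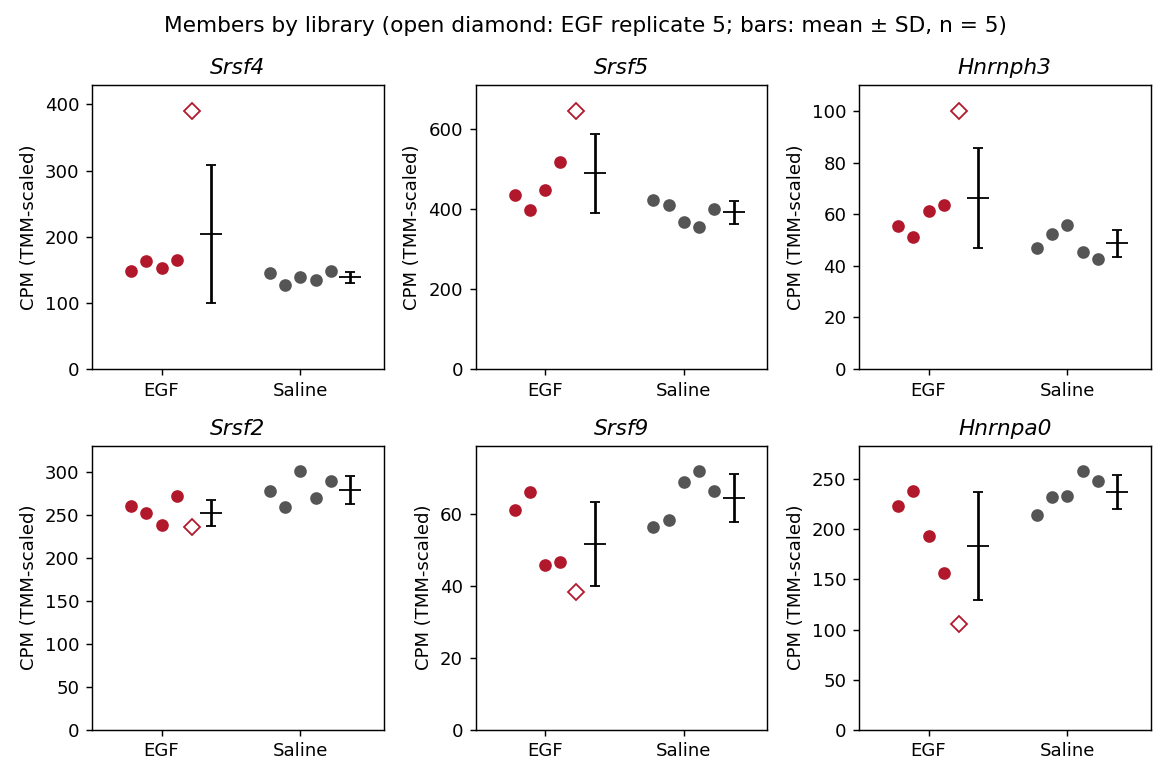
CPM of Srsf4, Srsf5 and Hnrnph3 (top) and Srsf2, Srsf9 and Hnrnpa0 (bottom) in each of the 5 EGF and 5 Saline libraries, with the mean and SD beside the points. The open diamond, EGF replicate 5, is the highest point in each panel of the top row and the lowest in each panel of the bottom row.

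Among the hnRNPs that bind G-rich RNA, Hnrnph3 and Hnrnph1 had higher mean values with EGF and Hnrnpf a lower one. Hnrnph3, on chromosome 10 from 63014664 to 63024217, was at 55.3, 51.3, 61.2, 63.6 and 100.2 CPM in EGF replicates 1 to 5, against 47.1, 52.5, 55.7, 45.4 and 42.6 CPM in Saline replicates 1 to 5. EGF replicates 3, 4 and 5 lay above all Saline libraries and replicates 1 and 2 within them (log2 fold change 0.45, SE 0.18, edgeR adjusted p = 0.552), and without EGF replicate 5 the log2 fold change was 0.25 (SE 0.10, edgeR adjusted p = 0.259). Its relative Hnrnph1 was at 525, 492, 572, 612 and 818 CPM in EGF replicates 1 to 5, against 495, 519.8, 552, 504 and 505 CPM in Saline replicates 1 to 5, again with EGF replicates 3, 4 and 5 above the Saline range, and with replicate 2 below it (log2 fold change 0.23, SE 0.13, edgeR adjusted p = 0.573; 0.10, SE 0.07, without EGF replicate 5). Hnrnpf, of the same type, was at 233, 237, 205, 222 and 165 CPM in EGF replicates 1 to 5, against 235, 236, 242, 240.3 and 227 CPM in Saline replicates 1 to 5. EGF replicates 3, 4 and 5 lay below its Saline range (log2 fold change -0.15, SE 0.10, edgeR adjusted p = 0.61; -0.07, SE 0.06, without EGF replicate 5). Counts of its near-copy pseudogenes came to 9.23% of its own in EGF replicate 5, against 1.46% to 1.69% in the other EGF libraries. Hnrnph2, the X-linked copy, averaged 94.0 ± 25.0 CPM in the EGF libraries, against 86.1 ± 4.26 CPM in the Saline libraries (SD, n = 5 each; log2 fold change 0.13; -0.05, SE 0.07, without EGF replicate 5), and in EGF replicate 5 it was at 138 CPM.

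Hnrnpa0, on chromosome 13 from 58125879 to 58128556, encodes an A/B-type protein that binds AU-rich elements of inflammatory mRNAs. It was at 223, 239, 194, 156 and 106 CPM in EGF replicates 1 to 5, against 214, 232, 233, 258 and 248 CPM in Saline replicates 1 to 5. EGF replicates 3, 4 and 5 lay below all Saline libraries, and replicates 1 and 2 within them (log2 fold change -0.37, SE 0.19, edgeR adjusted p = 0.552). Without EGF replicate 5 the log2 fold change was -0.23 (SE 0.10, edgeR adjusted p = 0.31). Hnrnpa0 has 1 exon, so its transcript needs no splicing.

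For each of the abundant genes Hnrnpa1, Hnrnpa2b1, Hnrnpab and Hnrnpa3, described next, EGF replicate 5 was the highest library. Hnrnpa1, a repressor of many exons, was at 881, 893, 868, 835 and 949 CPM in EGF replicates 1 to 5, against 737, 905, 892, 862 and 898 CPM in Saline replicates 1 to 5. EGF replicate 5 was the highest library, the other 4 EGF libraries lay within the Saline range, and the lowest library was Saline replicate 1 (log2 fold change 0.04, SE 0.08, edgeR adjusted p = 0.851; 0.02, SE 0.07, without EGF replicate 5). Hnrnpa2b1, a reader and carrier of RNA, was at 1260, 1273, 1211, 1264 and 1734 CPM in EGF replicates 1 to 5, against 1236, 1306, 1411, 1325 and 1267 CPM in Saline replicates 1 to 5. EGF replicate 5 was above and replicate 3 below all Saline libraries (log2 fold change 0.04, SE 0.11, edgeR adjusted p = 0.891; -0.07, SE 0.06, without EGF replicate 5). Hnrnpab was at 696, 711, 628, 703 and 895 CPM in EGF replicates 1 to 5, against 719, 707, 786, 795 and 778 CPM in Saline replicates 1 to 5. Its EGF replicates 1, 3 and 4 lay below the Saline range and replicate 5 above it (log2 fold change -0.06, SE 0.10, edgeR adjusted p = 0.835), and without replicate 5 the log2 fold change was -0.15 (SE 0.06, edgeR adjusted p = 0.287). Hnrnpa3 averaged 993 ± 350.3 CPM in the EGF libraries, against 882 ± 64.4 CPM in the Saline libraries (SD, n = 5 each; log2 fold change 0.17; -0.07, SE 0.07, without EGF replicate 5) and was at 1611 CPM in EGF replicate 5.

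Hnrnpk, a KH-domain protein that binds C-rich RNA, was at 811, 827, 849, 871 and 1513 CPM in EGF replicates 1 to 5, against 763, 832, 835, 869 and 892 CPM in Saline replicates 1 to 5. Apart from EGF replicate 5 every EGF library lay within the Saline range, and the log2 fold change was 0.22 (SE 0.17) with that library and 0.0016 (SE 0.06) without it. Hnrnpdl, a relative of the mRNA decay factor Hnrnpd, was at 247, 245, 287, 268 and 658 CPM in EGF replicates 1 to 5, against 228, 269, 286, 271 and 267 CPM in Saline replicates 1 to 5. EGF replicate 5 was far above every other library, and EGF replicate 3 was level with the highest Saline library (log2 fold change 0.37, SE 0.26, edgeR adjusted p = 0.635; -0.02, SE 0.07, without EGF replicate 5). Hnrnpm was at 628, 645, 599, 715 and 1204 CPM in EGF replicates 1 to 5, against 633, 623, 685, 656 and 645 CPM in Saline replicates 1 to 5, with EGF replicates 4 and 5 above the Saline range and replicate 3 below it (log2 fold change 0.23, SE 0.18, edgeR adjusted p = 0.664; -0.0042, SE 0.06, without EGF replicate 5).

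Hnrnpl, which binds CA repeats, was at 331, 366, 307, 313 and 293 CPM in EGF replicates 1 to 5, against 319, 358, 365, 343 and 352 CPM in Saline replicates 1 to 5. EGF replicates 3, 4 and 5 lay below the Saline range and replicate 2 above it (log2 fold change -0.11, SE 0.08, edgeR adjusted p = 0.639; -0.08, SE 0.06, without EGF replicate 5). Its paralog Hnrnpll, which controls splicing of Cd45 in lymphocytes, averaged 68.9 ± 9.03 CPM in the EGF libraries, against 71.0 ± 7.13 CPM in the Saline libraries (SD over 5 libraries a group; log2 fold change -0.04, SE 0.11, edgeR adjusted p = 0.893; -0.12, SE 0.09, without EGF replicate 5). Hnrnpu, a nuclear matrix protein and the member with the most counts, averaged 1501 ± 71.6 CPM in the EGF libraries, against 1522 ± 91.4 CPM in the Saline libraries (SD, n = 5 each), and in EGF replicate 5 it lay within the Saline range (log2 fold change -0.02, SE 0.08, edgeR adjusted p = 0.929; -0.01, SE 0.07, without EGF replicate 5). Hnrnpc, which binds uridine tracts, averaged 339 ± 83.5 CPM in the EGF libraries, against 304 ± 17.7 CPM in the Saline libraries (SD over 5 libraries a group; log2 fold change 0.15, SE 0.14, edgeR adjusted p = 0.713; -0.0023, SE 0.08, without EGF replicate 5). Pseudogene counts came to 6.50% of those of Hnrnpc in EGF replicate 5, against 0.329% to 0.794% in the other EGF libraries. Hnrnpd, Hnrnpr, Hnrnpul1 and Hnrnpul2 had log2 fold changes between 0 and 0.19, with edgeR adjusted p of at least 0.692, and each was above the Saline range in EGF replicate 5. Without that library their log2 fold changes were between -0.09 and -0.03.

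**Figure D4:**
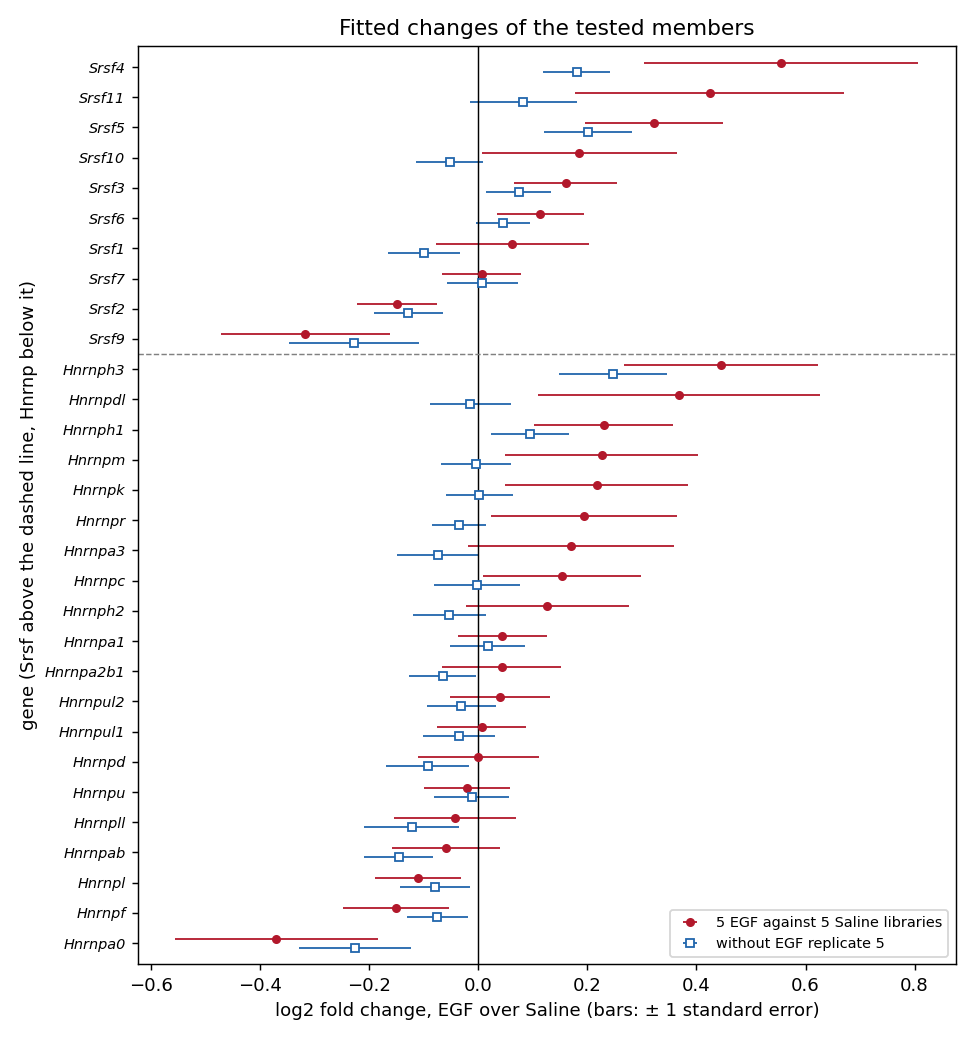
Fitted log2 fold change of EGF over Saline with its standard error for the 30 tested members, with all 10 libraries (filled circles) and without EGF replicate 5 (open squares), Srsf genes above the dashed line and Hnrnp genes below it. With all libraries the values run from 0.56 for Srsf4 to -0.37 for Hnrnpa0, and without EGF replicate 5 from 0.25 for Hnrnph3 to -0.23 for Srsf9 and Hnrnpa0.

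Exon numbers are given here for the members by where they lay in EGF replicate 5. The 23 tested members above the Saline range there had 3 to 18 exons in their longest coding transcript, with a median of 10. The 5 below it (Srsf2, Hnrnpl, Hnrnpf, Srsf9 and Hnrnpa0) had 3, 14, 3, 4 and 1 exons. Their transcripts had 1162 to 2679 bases, against 1568 to 21452 bases for the 23. These are descriptions of genes grouped by their value in 1 library, and the difference was not tested.

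Genes that act with these factors gave no call either, and all their lists were compared by the same edgeR fit, whose calls and background are those given above. Among 9 tested SR protein kinases and import factors, 8 had a log2 fold change above 0 (median 0.25; 0.08 without EGF replicate 5), 4 had an unadjusted p under 0.05 as higher and 0 as lower. Clk1, which phosphorylates SR proteins in the nucleus, was at 224, 194, 302, 282 and 299 CPM in EGF replicates 1 to 5, against 191, 190.2, 176, 164 and 194 CPM in Saline replicates 1 to 5. After TMM scaling the groups did not overlap, but the margin between EGF replicate 2 (194.1 CPM) and Saline replicate 5 (193.8 CPM) was very narrow. Over all genes tested, 1.62% had every EGF library above all Saline libraries. EGF replicates 3, 4 and 5 were the highest (log2 fold change 0.51, SE 0.13, edgeR adjusted p = 0.552). Without EGF replicate 5 the log2 fold change of Clk1 was 0.45 (SE 0.11). Clk4, of the same kinase family, was at 60.8, 47.1, 71.6, 73.1 and 94.1 CPM in EGF replicates 1 to 5, against 50.8, 44.2, 54.5, 47.9 and 49.3 CPM in Saline replicates 1 to 5, with EGF replicates 1, 3, 4 and 5 above the Saline range (log2 fold change 0.49, SE 0.16, edgeR adjusted p = 0.552; 0.36, SE 0.12, without EGF replicate 5). Prpf4b, a kinase of the spliceosome, had a log2 fold change of 0.59 (SE 0.25), and 0.22 without EGF replicate 5.

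Of 25 SR-related proteins, such as the speckle scaffold Srrm2 and the SR-like Srek1, 22 had a log2 fold change above 0 (median 0.28), and 20 of 25 did without EGF replicate 5 (median 0.08). At an unadjusted p under 0.05, 3 were higher and 0 lower. Srrm2 was at 1254, 1197, 1322, 1489 and 1724 CPM in EGF replicates 1 to 5, against 1272, 1165, 1170, 1038 and 1121 CPM in Saline replicates 1 to 5 (log2 fold change 0.28, SE 0.11, edgeR adjusted p = 0.552; 0.19, SE 0.08, without EGF replicate 5). Its EGF replicates 3, 4 and 5 lay above the Saline range and replicates 1 and 2 within it. Of 11 hnRNP proteins under other symbols, 6 were above 0 (median 0.04; -0.05 without EGF replicate 5) and 0 had an unadjusted p under 0.05, while without EGF replicate 5 there was 1, as lower. Among them Ptbp1, a repressor that binds pyrimidine tracts, was at 422, 419.8, 367, 346 and 120.2 CPM in EGF replicates 1 to 5, against 435, 444, 468, 444 and 445 CPM in Saline replicates 1 to 5. Its EGF libraries all lay below its Saline libraries, which was so for 1.65% of all genes tested. EGF replicate 5 was the lowest (log2 fold change -0.42, SE 0.26, edgeR adjusted p = 0.61; -0.20, SE 0.07, without EGF replicate 5).

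Of 47 core spliceosome genes, 24 were above 0 (median 0.00029), and 13 of 47 were without EGF replicate 5 (median -0.08). At an unadjusted p under 0.05, 1 was higher, Snrnp70 of the U1 particle (log2 fold change 0.50, SE 0.21, edgeR adjusted p = 0.552; 0.22, SE 0.07, without EGF replicate 5), and 2 were lower, Prpf19 and Snrpd1. Without EGF replicate 5, 1 was higher and 6 were lower at that threshold. Of 17 other splicing regulators 15 were above 0 (median 0.14; 0.08 without EGF replicate 5), with 4 higher and 0 lower at an unadjusted p under 0.05, led by Tia1 (log2 fold change 0.35, SE 0.11, edgeR adjusted p = 0.552; 0.28, SE 0.10, without EGF replicate 5). Of 15 genes of nonsense-mediated decay and the exon junction complex 11 were above 0 (median 0.08), and 6 of 15 without EGF replicate 5 (median -0.04). Smg6, the endonuclease of that pathway, was at 153, 144, 183, 176 and 242 CPM in EGF replicates 1 to 5, against 126, 138, 143, 131 and 124 CPM in Saline replicates 1 to 5. After TMM scaling the groups of Smg6 did not overlap, with a narrow margin between EGF replicate 2 (143.6 CPM) and Saline replicate 3 (142.5 CPM). Other genes of these lists were separated as well, Prpf4b and Upf2 with EGF above and Mbnl3 and Snrpf with EGF below. Over all genes tested, 1.62% had every EGF library above and 1.65% every EGF library below. The log2 fold change of Smg6 was 0.44 (SE 0.13, edgeR adjusted p = 0.552), and 0.31 (SE 0.08) without EGF replicate 5. The nuclear RNAs Malat1 and Neat1 had log2 fold changes of 1.16 (SE 0.34) and 1.47 (SE 0.46), with edgeR adjusted p of 0.552 each. Without EGF replicate 5 these were 0.75 (SE 0.20) and 1.13 (SE 0.39).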

How the data were processed

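RNA of HSPCs from irradiated mice was sequenced in 10 libraries. Extraction used the Qiagen RNeasy Micro kit, and a Clontech kit served for the rRNA-depleted libraries, per the labels' protocols. The submitters' processing notes name bcl2fastq 2.17, STAR, GRCm38 and mm10. No source used here gives the counter, its strand setting or the annotation release. The deposited values are whole-number counts per gene, 1 file per library, with no normalization.

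Genes were kept by filterByExpr (minimum count 10) and scaled by TMM, and EGF was tested against Saline with edgeR 4.0.16 (R 4.3.3), quasi-likelihood F test, over all 10 libraries, with Benjamini-Hochberg adjustment over all genes tested at 0.05. Standard errors come from the F statistic. Alternatives were RLE, upper quartile and library size scaling, DESeq2 1.42.0, limma-voom 3.58.1, other filters, a robust fit, the replicate as a block, and libraries left out. The script was tested on simulated data in which no library stood apart as EGF replicate 5 does, so that test does not cover its effect. GENCODE M21 gave positions and lengths for 55480 of 55573 identifiers. Symbols that differed between files (27) took the GENCODE name. No 2 libraries matched within counting noise (lowest chi-square over its degrees of freedom 5.94).

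The members and lists were chosen with earlier results of these data known. Values in each library are given for the 8 members of each family with the smallest p and for the 3 with the highest level per length, and group means for a fixed set of others.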

Additional observations from a re-analysis of the deposited data

Results flagged for a closer look

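In a group of 5 libraries a single value was marked where its gap to the nearest other library took up more than 0.71 of the group's range (Dixon). Chance marks about 1 in 20 groups, and 64 groups were looked at. Among genes the rule was applied to the members only, so the share of all genes that it would mark in EGF replicate 5 is not known. By another measure, 36.3% of all genes tested lay above all Saline libraries in that library and 50.7% below, against 76.7% and 16.7% of the members. Whether the marks below are particular to the members was not tested. EGF replicate 5 was marked as the high library for 13 members, at 1734 CPM for Hnrnpa2b1, 1611 CPM for Hnrnpa3, 658 CPM for Hnrnpdl, 138 CPM for Hnrnph2, 100.2 CPM for Hnrnph3, 1513 CPM for Hnrnpk, 1204 CPM for Hnrnpm, 389 CPM for Hnrnpr, 622 CPM for Srsf1, 248 CPM for Srsf10, 595 CPM for Srsf11, 390.4 CPM for Srsf4 and 328 CPM for Srsf6. The same library was marked as low for its 12731 genes with a count, against 18734 to 20046 in the other 9 libraries. Saline replicate 1 was marked as low for Hnrnpa1 at 737 CPM, and Saline replicate 3 as high for Hnrnpll at 83.2 CPM. Srsf12 was marked in EGF replicate 1, at 0.125 CPM, which is a single count.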

How the results depend on the processing

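No setting called a member, and no median of either family moved by more than its spread between libraries (0.15 on the log2 scale). That spread was taken over all libraries, EGF replicate 5 included, so it cannot tell whether leaving that library out moved a median. Without EGF replicate 5 the SR median went from 0.14 to 0.03, and the hnRNP median from 0.04 to -0.04. Over all genes the counts of calls (higher and lower) changed: 36 and 20 by DESeq2, 8 and 4 by limma-voom with quality weights, 183 and 130 by DESeq2 with EGF replicate 5 left out, 4 and 4 with library size scaling and EGF replicate 5 left out, and 0 and 0 with library size scaling, with the replicate block and with EGF replicates 3 and 4 left out, against 1 and 0 in the test reported. With 1 library left out the calls ranged from 0 to 4 in each direction, with 4 and 4 without EGF replicate 5. The median of the SR members ranged from 0.03 without EGF replicate 5 to 0.16 without EGF replicate 3, and that of the hnRNP members from -0.04 without EGF replicate 5 to 0.08 without EGF replicate 3. With EGF replicates 3, 4 and 5 left out the medians were -0.0025 and -0.02, and with replicates 3 and 4 left out 0.21 and 0.11. None of the members whose sign turned was called in any setting, and the cause was not tested. With sample quality weights in limma-voom the log2 fold change was -0.064 for Hnrnpa2b1, -0.078 for Hnrnpa3, -0.015 for Hnrnpc, -0.094 for Hnrnpd, -0.044 for Hnrnpdl, -0.047 for Hnrnph2, -0.022 for Hnrnpk, -0.022 for Hnrnpm, -0.027 for Hnrnpr, -0.039 for Hnrnpul1, -0.053 for Hnrnpul2, -0.093 for Srsf1, -0.067 for Srsf10. With EGF replicates 3, 4 and 5 left out the log2 fold change was -0.050 for Hnrnpa2b1, -0.037 for Hnrnpa3, -0.026 for Hnrnpd, -0.11 for Hnrnpdl, -0.020 for Hnrnph1, -0.012 for Hnrnph2, -0.035 for Hnrnpk, 0.00084 for Hnrnpl, -0.028 for Hnrnpm, -0.018 for Hnrnpr, 0.029 for Hnrnpu, -0.0032 for Hnrnpul2, -0.066 for Srsf1, -0.098 for Srsf10, -0.075 for Srsf11. By DESeq2 with EGF replicate 5 left out the log2 fold change was -0.063 for Hnrnpa2b1, -0.073 for Hnrnpa3, -0.00022 for Hnrnpc, -0.091 for Hnrnpd, -0.014 for Hnrnpdl, -0.051 for Hnrnph2, -0.0023 for Hnrnpm, -0.034 for Hnrnpr, -0.034 for Hnrnpul1, -0.029 for Hnrnpul2, -0.097 for Srsf1, -0.051 for Srsf10. With library size scaling and EGF replicate 5 left out the log2 fold change was -0.038 for Hnrnpa2b1, -0.048 for Hnrnpa3, -0.065 for Hnrnpd, -0.028 for Hnrnph2, -0.0088 for Hnrnpr, 0.015 for Hnrnpu, -0.0092 for Hnrnpul1, -0.0043 for Hnrnpul2, -0.073 for Srsf1, -0.025 for Srsf10. With EGF replicates 3 and 4 left out the log2 fold change was 0.014 for Hnrnpab, 0.0025 for Hnrnpll. With library size scaling the log2 fold change was -0.0087 for Hnrnpd. With upper quartile scaling the log2 fold change was -0.025 for Hnrnpd, -0.015 for Hnrnpul1, -0.012 for Srsf7. With limma-voom the log2 fold change was -0.0076 for Hnrnpd. With no filter the log2 fold change was -0.010 for Hnrnpd, -0.0039 for Hnrnpul1, -0.0039 for Srsf7. With the replicate block the log2 fold change was -0.0071 for Hnrnpd. With 1 library left out in turn the values ranged from -0.0072 to 0.064 for Hnrnpa1, -0.065 to 0.078 for Hnrnpa2b1, -0.075 to 0.26 for Hnrnpa3, -0.0023 to 0.24 for Hnrnpc, -0.092 to 0.056 for Hnrnpd, -0.015 to 0.46 for Hnrnpdl, -0.053 to 0.18 for Hnrnph2, -0.12 to 0.022 for Hnrnpll, -0.0042 to 0.30 for Hnrnpm, -0.036 to 0.25 for Hnrnpr, -0.043 to 0.014 for Hnrnpu, -0.035 to 0.035 for Hnrnpul1, -0.031 to 0.083 for Hnrnpul2, -0.099 to 0.13 for Srsf1, -0.053 to 0.26 for Srsf10, -0.019 to 0.049 for Srsf7. The replicate numbers were not taken as pairs: deviations of same-numbered libraries correlated between -0.0761 and 0.0128 over genes, and 0 of 10 libraries correlated best with their own number. With the replicate as a block the medians were 0.12 and 0.04, and 0 members had an unadjusted p under 0.05 as higher, against 3 without it. Over all 12874 genes tested, 322 were higher at that threshold with the block, against 790 without it. The depth of 6805106 to 8370820 counts limits mainly Srsf12, and a p that misses the threshold does not show equal levels.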

Other observations

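Reads of near copies can be split or lost in counting, and how the submitters treated them is not given in the sources used here. Annotated pseudogenes with at least 90% identity over 300 bases were found for 14 members, most for Hnrnpa3 (37) and Hnrnpa1 (16), and their counts came to 2.13% and 1.34% of the counts of those genes over all libraries. Over all libraries the highest share was 3.73% for Hnrnpk, with 2 such pseudogenes, but the shares differed between libraries. For Hnrnpk the share was 1.79% in EGF replicate 5, against 2.74% to 5.12% in the other EGF libraries and 3.90% to 4.78% in the Saline libraries. For Hnrnpf, with 7 pseudogenes, it was 9.23% in EGF replicate 5, against 1.46% to 1.69% in the other EGF libraries and 0.701% to 2.02% in the Saline libraries. For Hnrnpc, with 3, it was 6.50% in EGF replicate 5, against 0.329% to 0.794% in the other EGF libraries and 0.469% to 0.748% in the Saline libraries. The part of these reads in the members' values in that library was not tested. Exons of other genes on the opposite strand overlap more than 20% of the exonic bases of Srsf2, Srsf4, Hnrnpab and Hnrnpf, so for these the counts are uncertain where strand was not used.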
